A study of Mus musculus with 16 samples.

Results

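The data described here are 16 RNA libraries of iWAT, the inguinal white adipose tissue of the groin, in which the inguinal lymph node lies embedded. They were grouped by Glycam1, a gene whose transcript is abundant in the vessels through which lymphocytes enter lymph nodes. A library was placed in the Glycam1-high group when Glycam1 took more than 1 CPM of its total, where CPM is a gene's counts scaled to a total of 1 mega count. By this rule 6 of the 16 libraries were Glycam1-high and 10 were Glycam1-low. All mice were given as females of the C57BL/6 strain (C57BL/6J in the study's methods) aged 90 days, with no treatment. WT mice were unaltered, Lepob/+ mice were heterozygous for the ob null allele of the leptin gene Lep, SOD1G93A mice had a high copy transgene of mutant human SOD1, a model of amyotrophic lateral sclerosis, and SOD1G93A-Lepob/+ mice combined the ob allele and the transgene. Both alterations are present in the whole animal, so neither is limited to fat. There were 4 mice per genotype. The Glycam1-high group held WT replicates 1 and 2, Lepob/+ replicate 3 and SOD1G93A replicates 1, 2 and 4, and no SOD1G93A-Lepob/+ library.

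Lymph nodes collect lymph from the surrounding tissue and bring circulating lymphocytes together with antigen. Lymphocytes leave the blood through high endothelial venules, whose surface carries sulphated sugars on proteins such as GlyCAM-1. Stromal cells of the T cell zone make the chemokines CCL21 and CCL19, which attract cells bearing CCR7, and follicular stroma makes CXCL13, which attracts B cells bearing CXCR5. Glycam1 is also a milk protein gene of the lactating mammary gland, which in female mice shares the groin fat pad.

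The libraries held 36.8 to 61.9 M counts (M for mega). Glycam1 levels just inside and just outside the threshold were far apart. The lowest Glycam1-high library, WT replicate 2, had 226.5 CPM of its total and the highest Glycam1-low library, Lepob/+ replicate 1, had 0.0604 CPM, which was 3 counts. The other 9 Glycam1-low libraries had 0 Glycam1 counts. Thresholds of 0.2 or 5 CPM for Glycam1, or of 5 CPM for Ccl21a, gave the same 6 libraries. Lepob/+ replicate 4 and WT replicate 3, both Glycam1-low, stood apart in skeletal muscle transcripts, with a summed muscle list level of 259198 and 6773 CPM against 54.7 to 452 CPM in the other libraries. The library labelled SOD1G93A-Lepob/+ replicate 3, also Glycam1-low, had 0 counts of Xist and 1756 counts of 4 Y chromosome genes, which had no counts in the other 15 libraries. List medians that move by over 1.5 times or change sign without these 3 libraries have that value beside them.

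The lymph node markers separated the groups without overlap, and the label of lymph node tissue rests on genes other than Glycam1 as well. From here on, CPM values are scaled by TMM, a factor per library computed from genes that vary little between libraries. Glycam1 (ENSMUSG00000022491, chr15:103562759-103565081 of GRCm38) lay at 203 to 614 CPM in the Glycam1-high libraries, with a median of 421 CPM. Its counts summed to 115020 in that group and to 3 in the Glycam1-low libraries, a separation that the rule itself fixed.

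Ccl21a (ENSMUSG00000094686, chr4:42772860-42773993) lay at 205 to 368 CPM in the Glycam1-high libraries (median 254) and at 0.0529 to 3.10 CPM in the Glycam1-low libraries (median 0.566). The gene has near-identical copies, and Ccl21b, Gm13304 and Gm21541 held 405 to 725, 1860 to 3433 and 302 to 560 counts in the Glycam1-high libraries, so how reads were divided among the copies is uncertain. Cd3e (ENSMUSG00000032093, chr9:44998740-45009627), a subunit of the T cell receptor complex, lay at 49.0 to 97.9 CPM (median 65.5) in the Glycam1-high libraries. In the Glycam1-low libraries Cd3e lay at 0.489 to 1.93 CPM (median 0.918). Every Glycam1-high library therefore held more Cd3e than every Glycam1-low library, and the same was true of Cd79a. Cd79a (ENSMUSG00000003379, chr7:24897381-24902197), a signalling subunit of the B cell receptor, lay at 119 to 343 CPM (median 195) against 0.566 to 3.83 CPM (median 1.16).

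Of 8 milk protein genes listed besides Glycam1, 3 had enough counts to be tested. None of these 3 was counted higher by the measure described below, and the rest could not be counted. With 6.67% of all genes counted higher, 3 genes are too few for this count to be read. Lalba had 0 to 19 counts in the Glycam1-high and 11 to 91 in the Glycam1-low libraries, and Btn1a1 had 169 to 556 against 157 to 1142. Wap had 0 counts in all 16 libraries, and Csn1s1 had 0 to 4 counts in the Glycam1-high and 0 to 10 in the Glycam1-low libraries. Csn2 had 47 counts in Lepob/+ replicate 3, 10 in SOD1G93A replicate 2, 7 in WT replicate 2 and 3 in SOD1G93A-Lepob/+ replicate 4, and 0 in the other 12 libraries. Csn3 overlapped between the groups, at 358 to 1629 against 414 to 3087 counts. All 15 genes of the mammary epithelium list had a log2 difference above 0, with a median of 0.45. None was counted higher, in a list too short to be read against the 6.67% of all genes. Without genotype as a term in the fit the median was 1.03e-05. Its level ran from 542 to 1744 summed CPM in the Glycam1-high and from 731 to 2495 in the Glycam1-low libraries, and keratin 8 (Krt8) lay at 81.8 to 275 against 91.6 to 317 CPM.

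**Figure D1:**
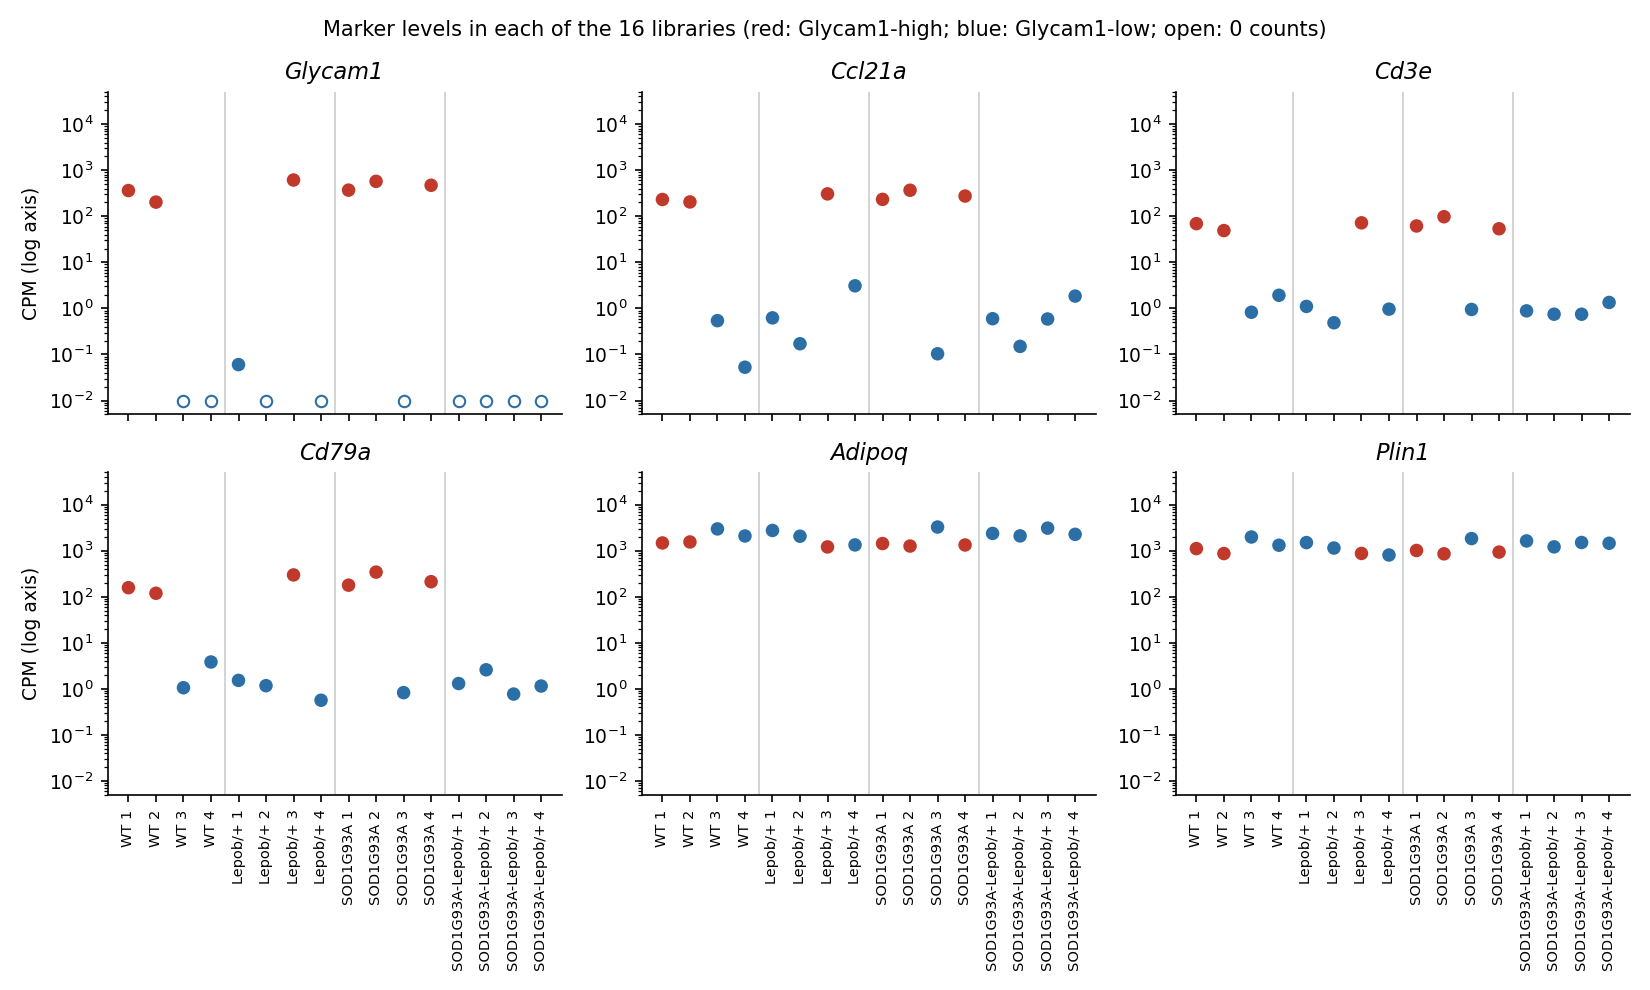
Levels of 4 lymph node markers and 2 adipocyte genes in each library, in CPM on a log axis, by genotype and replicate number, with libraries that had 0 counts drawn as open circles at 0.01 CPM. For Glycam1, Ccl21a, Cd3e and Cd79a the 6 Glycam1-high libraries (red) lie above all 10 Glycam1-low libraries (blue), while for Plin1 they overlap.

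Because the libraries were chosen by a level measured in them, the difference between the groups is described here and not tested. A gene was counted higher or lower when all 6 Glycam1-high libraries lay above, or below, all 10 Glycam1-low libraries and the log2 difference from an edgeR fit with genotype as a term was at least 1 in size. Of 19736 genes tested 1316 were counted higher (6.67%) and 160 were counted lower (0.811%). The genes counted higher included 620 that differed by 8-fold or more and 88 with 0 counts in every Glycam1-low library. Those 88 were tested only because of their counts in the Glycam1-high libraries. Among the genes counted lower, 18 differed by 4-fold or more. The median log2 difference over all genes was -0.05, and 0.16 when libraries were scaled by their totals instead of TMM, so small differences are to be read against that shift of scale. With library totals 1591 genes were counted higher and 50 lower. Without WT replicate 2 the number counted lower was 257, and without WT replicate 3, Lepob/+ replicate 4 and SOD1G93A-Lepob/+ replicate 3 it was 326.

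All 24 T cell genes were counted higher, with a median log2 difference of 5.74 and a range from 3.09 for Cd28, which costimulates T cells, to 7.46 for Lef1, a transcription factor of naive T cells. Tcf7, a transcription factor related to Lef1, lay at 132 to 299 CPM (median 187) in the Glycam1-high libraries and at 1.56 to 5.83 CPM (median 3.16) in the Glycam1-low libraries. Lck, the kinase that starts T cell receptor signalling, differed by a log2 value of 5.67 ± 0.29 (standard error, as for all log2 differences here). The coreceptors Cd8a and Cd4 differed by 6.70 ± 0.51 and 4.89 ± 0.35. Cd8a lay at 78.2 to 135 against 0.196 to 1.86 CPM, and Cd4, which some macrophages also express, at 60.9 to 127 against 1.20 to 5.12 CPM. Of the 75 V segments of T cell receptor genes with enough counts to be tested, 73 were counted higher, with a median of 4.17. All 7 C segments were counted higher too. With few counts in the Glycam1-low libraries, such segments were tested mainly through their counts in the Glycam1-high libraries, which favours counting them as higher. T cell receptor segments together took 0.0326 to 0.0694% of all counts in the Glycam1-high libraries and 0.000532 to 0.00165% in the others.

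All 22 B cell genes were counted higher, with a median log2 difference of 6.26. They ran from 1.75 for Blnk, an adaptor of B cell receptor signalling that macrophages also express, to 7.48 for Fcer2a, the low affinity IgE receptor of mature B cells. Cd37, a tetraspanin of many leukocytes, was also present in the Glycam1-low libraries, at 11.2 to 47.3 CPM, and differed by 2.43 ± 0.39. Cd79b, the partner of Cd79a, differed by 5.72 ± 0.44.

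Antibody genes differed in which classes they came from. Ighd, the constant region of IgD on naive B cells, lay at 176 to 572 CPM (median 315) in the Glycam1-high libraries and at 3.15 to 12.4 CPM (median 4.45) in the Glycam1-low libraries. Ighm, the constant region of IgM, overlapped between the groups, at 398 to 1174 against 148 to 507 CPM, and was not counted. The ratio of Ighm to Ighd counts was accordingly 1.87 to 2.26 in the Glycam1-high and 23.0 to 110 in the Glycam1-low libraries. The light chain constant regions Igkc and Iglc2, both counted higher like Ighd, Iglc3 and Ighg2c, differed by 3.85 ± 0.56 and 5.55 ± 0.69. Of the 123 V segments of antibody genes with enough counts to be tested, 70 were counted higher, beside 6.67% of all genes. Segments with few counts in the Glycam1-low libraries were tested mainly through the Glycam1-high libraries, which favours counting them as higher.

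Promoter sequences are shown for Glycam1 and for 1 B cell and 1 T cell gene whose promoter held a motif of a lineage factor, to show where these letters sit in genes that were counted higher together. Sequences are from RefSeq on GRCm38.p6 and cover the 250 bases before the gene's start, of which 15 of 24 T cell, 17 of 22 B cell and 17 of 27 adipocyte genes had one. Each was searched on both strands for the octamer ATGCAAAT, bound by the Oct factors of B cells and for ATCAAAG, bound by TCF and LEF factors. The motifs overlapped at no position in the sequences shown, and capitals mark the match. The octamer was found in the B cell genes Vpreb3 and Blnk and ATCAAAG in the T cell genes Cd3d and Trat1. Glycam1, which divided the libraries, held neither.
Glycam1 (chr15:103565082-103565331, minus strand): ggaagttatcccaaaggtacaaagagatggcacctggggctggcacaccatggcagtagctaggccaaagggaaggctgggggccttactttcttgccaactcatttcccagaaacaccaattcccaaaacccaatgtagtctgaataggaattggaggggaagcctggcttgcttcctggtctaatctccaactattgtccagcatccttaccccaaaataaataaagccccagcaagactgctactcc
Vpreb3 (chr10:75948050-75948299, plus strand): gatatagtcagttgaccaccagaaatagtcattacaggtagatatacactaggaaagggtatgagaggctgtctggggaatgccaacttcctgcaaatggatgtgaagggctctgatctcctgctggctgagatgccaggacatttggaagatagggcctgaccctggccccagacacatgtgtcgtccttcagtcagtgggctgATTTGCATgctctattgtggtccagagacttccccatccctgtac
Cd3d (chr9:44981536-44981785, plus strand): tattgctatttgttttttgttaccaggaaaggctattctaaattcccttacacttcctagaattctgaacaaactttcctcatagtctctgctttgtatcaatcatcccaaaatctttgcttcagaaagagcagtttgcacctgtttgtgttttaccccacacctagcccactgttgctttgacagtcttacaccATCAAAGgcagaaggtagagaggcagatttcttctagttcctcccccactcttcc
The octamer began 45 bases before the start of Vpreb3, and ATCAAAG 55 bases before that of Cd3d. Over all genes counted higher that had a promoter, 27 of 787 held the octamer (3.43%) and 27 held ATCAAAG (3.43%), beside 1.56% and 2.89% of the 12959 genes tested that had one and 1.81% and 3.72% of all 27025 genes with a promoter. Neither motif was in any of the 17 adipocyte promoters. These matches describe the letters of this window and say nothing of binding.

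All 8 chemokine receptors of lymphoid cells were counted higher, with a median log2 difference of 5.07. Ccr7, the receptor for CCL19 and CCL21, lay at 76.1 to 126 CPM (median 89.2) against 0.366 to 2.30 CPM (median 1.08). Cxcr5, the receptor for CXCL13, lay at 20.2 to 73.9 CPM (median 37.3) against 0.1998 to 0.925 CPM (median 0.378). Ccr9, Ccr6, Ccr4 and Xcr1 differed by 6.44, 5.49, 4.66 and 2.44, and Cxcr4 and Cxcr3 by 2.07 and 1.57. In the list of naive and recirculating lymphocytes 6 of 10 genes were counted higher. Its members S1pr1 and Klf2 are also abundant in endothelium and overlapped between the groups, at 134 to 196 against 62.9 to 149 CPM and at 95.1 to 153 against 56.7 to 103 CPM.

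Of the regulatory T cell genes 6 of 7 were counted higher, with a median of 3.31. Foxp3, the transcription factor that defines these cells, lay at 5.67 to 17.5 CPM (median 11.3) against 0 to 0.633 CPM (median 0.179). Izumo1r, a folate receptor family member of regulatory T cells, differed by 7.27 ± 0.59, and Ctla4, an inhibitory receptor, by 5.18 ± 0.48. Il2ra and Ikzf2 differed least, by 1.56 ± 0.19 and 1.47 ± 0.25, and Ikzf2, at 7.85 to 13.7 against 2.34 to 8.46 CPM, overlapped between the groups. Of the NK and cytotoxic genes 8 of 10 were counted higher, with a median of 2.33. The chemokine Ccl5 led them in level and differed by 4.96 ± 0.21, at 106 to 136 against 2.82 to 6.77 CPM. Nkg7 and Prf1, of cytotoxic granules, differed by 3.57 ± 0.25 and 2.89 ± 0.25.

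Genes of the node's vessels and stroma divided into those counted higher and those that overlapped. In the list of high endothelial venules 4 of 8 genes were counted higher, and its median log2 difference was 1.07. Glycam1 is among these 4 and enters the median, and its own difference was fixed by the rule that grouped the libraries. Chst4, a sulphotransferase of these sugars, lay at 1.66 to 5.93 CPM (median 3.21) in the Glycam1-high libraries and had 0 counts in each Glycam1-low library. Madcam1, an addressin, lay at 2.64 to 4.87 against 0 to 1.02 CPM, and Chst2, another sulphotransferase, at 14.9 to 18.6 against 4.96 to 10.03 CPM. Fut7, a fucosyltransferase of the same sugars, which leukocytes also express, overlapped at 0.656 to 7.97 against 0.181 to 2.01 CPM. Ackr1 and B3gnt3 had log2 differences of -0.86 ± 0.20 and -0.30 ± 0.12.

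Of 11 stromal genes 5 were counted higher (Ccl21a, Ccl19, Grem1, Ch25h and Tnfsf11), and the median was 1.64. Ccl19 lay at 35.6 to 57.0 CPM (median 46.5) in the Glycam1-high libraries and at 0.190 to 0.620 CPM (median 0.536) in the others. Cxcl13 was not counted, since its 36.5 to 61.8 CPM overlapped with the 2.35 to 45.4 CPM of the Glycam1-low libraries. Ltbr, the lymphotoxin receptor, had a log2 difference of -0.63 ± 0.07. Of 12 dendritic cell genes 7 were counted higher, with a median of 1.56. Ccl22, a chemokine of migratory dendritic cells, lay at 48.6 to 64.2 against 0.300 to 3.01 CPM, and Fscn1, an actin bundler of mature dendritic cells, at 173 to 222 against 24.9 to 120 CPM. The MHC class II genes were abundant in both groups. Cd74, the invariant chain, lay at 1007 to 2972 against 660 to 1666 CPM, and the 3 of 9 genes of the list that were counted higher were H2-Oa, H2-DMb2 and Ciita, where H2-Oa, which regulates peptide loading in B cells, lay at 20.1 to 56.6 against 0.587 to 1.40 CPM.

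Genes of sinus macrophages and lymphatic vessels overlapped between the groups. None of 4 sinus macrophage genes and none of 10 lymphatic endothelium genes was counted higher, lists too short to be read against the 6.67% of all genes, and their medians were 0.39 and -0.29. Without the 3 libraries that stood apart the sinus macrophage median was -0.06. Marco, a scavenger receptor of medullary macrophages, lay at 13.98 to 81.9 CPM (median 55.5) in the Glycam1-high libraries and at 0.534 to 23.3 CPM (median 0.868) in the others, where the highest value was that of Lepob/+ replicate 4. Marco differed by 5.14 ± 1.12. Siglec1, another sinus macrophage gene, lay at 49.1 to 260 against 40.0 to 432 CPM, and Lyve1, of lymphatic vessels and of some macrophages, at 23.4 to 132 against 17.1 to 206 CPM.

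The 10 highest differences among genes of at least 1 CPM on average included genes outside the lists. They were Glycam1, Ccl21a, Gm8221, Dsc3, Serpina10, H2-M2, Insm1, Dapl1, Grem1 and Gm30948. H2-M2, a nonclassical MHC class I gene, lay at 17.9 to 24.3 CPM in the Glycam1-high and at 0 to 0.325 CPM in the Glycam1-low libraries, and Dsc3, a desmosomal cadherin, at 3.91 to 22.3 against 0 to 0.111 CPM. Insm1, a zinc finger transcription factor, and Grem1, a secreted BMP antagonist of the stromal list, had 0 counts in every Glycam1-low library. Against 3 counts over that group, Insm1 was at least 911-fold and Grem1 at least 894-fold higher, bounds that cover counting error only. Insm1 varied little among the Glycam1-high libraries, at 4.39 to 7.18 CPM.

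**Figure D2:**
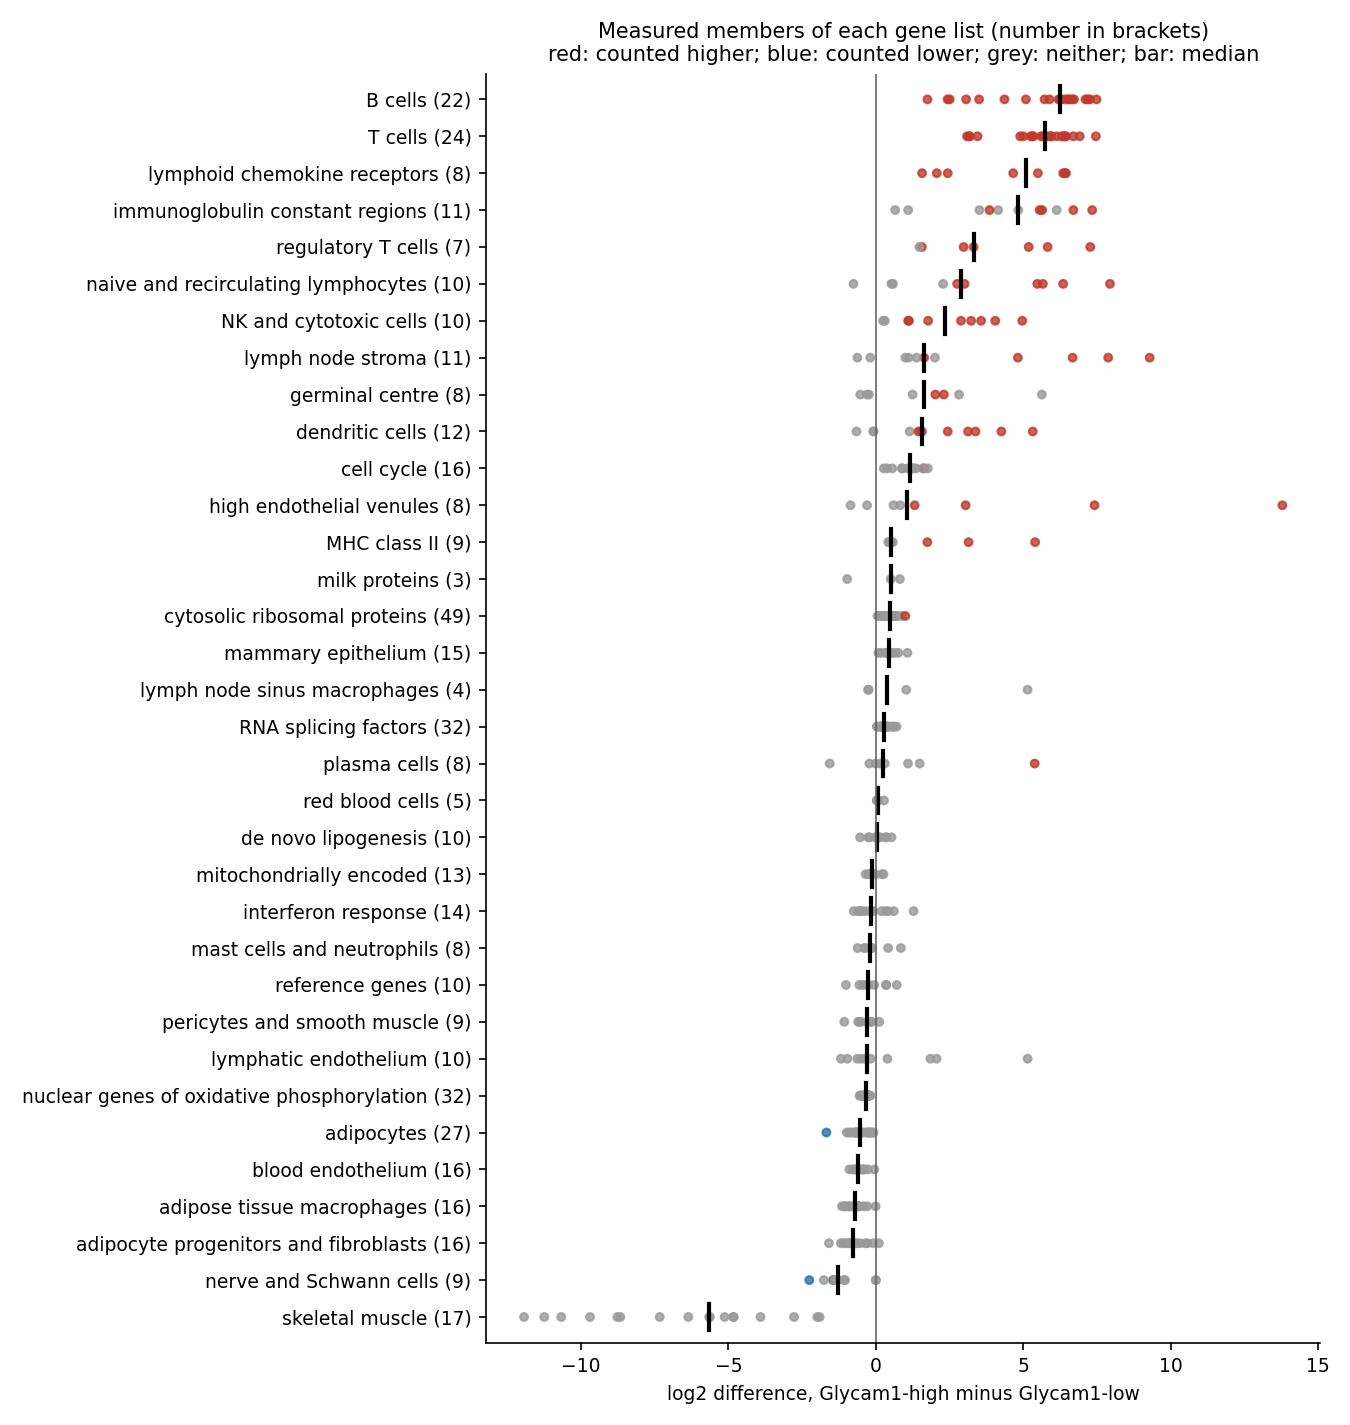
Log2 differences of the measured members of each gene list, Glycam1-high minus Glycam1-low, with 1 point per gene, red for genes counted higher, blue for genes counted lower, grey for neither, and a bar at the list's median. B and T cell genes have the highest medians, 6.26 and 5.74, adipocyte, endothelial and macrophage genes lie below 0, and the skeletal muscle list rests on Lepob/+ replicate 4 and WT replicate 3.

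Genes of fat cells had log2 differences below 0, much smaller in size than those of the lymphoid genes. All 27 adipocyte genes had a log2 difference below 0, and the median was -0.54 with TMM and -0.36 with library totals. Only Lep was counted lower, beside 0.811% of all genes. Lep, which encodes leptin, lay at 181 to 360 CPM (median 225) in the Glycam1-high and at 447 to 1843 CPM (median 657) in the Glycam1-low libraries and differed by -1.68 ± 0.29. Adipoq, the hormone adiponectin, lay at 1209 to 1547 CPM (median 1380) against 1335 to 3262 CPM (median 2320). The lowest Glycam1-low value of Adipoq, from Lepob/+ replicate 4, was the one within the range of the other group. Plin1 and Cidec, proteins of the lipid droplet, had log2 differences of -0.71 ± 0.17 and -0.46 ± 0.24. The most abundant genes of the list, Car3, Fabp4, Cfd and Lpl, had values of -0.79 ± 0.20, -0.51 ± 0.21, -0.33 ± 0.27 and -0.98 ± 0.20. CPM is a share of the library, so RNA from other tissue also lowers it. In bulk tissue this dilution, fewer cells of a type and less RNA per cell cannot be told apart.

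Genes of macrophages, endothelium and progenitors also had medians below 0, unlike those of mammary epithelium. All 16 macrophage genes were below 0, with a median of -0.70, which was -1.15 without WT replicate 2, -0.46 without WT replicate 4, -0.37 without Lepob/+ replicate 3 and -1.07 without the 3 libraries that stood apart. All 16 genes of blood endothelium were below 0, with a median of -0.62. Of 16 genes of progenitors and fibroblasts 15 were below 0, with a median of -0.78. No gene of these 3 lists was counted lower, but the lists are too short to be read against the 0.811% of all genes. Col1a1, a collagen of fibroblasts, lay at 721 to 1751 against 1299 to 3245 CPM, and Csf1r, the growth factor receptor of macrophages, at 161 to 453 against 155 to 678 CPM. Cdh5, a cadherin of endothelium, had a log2 difference of -0.64 ± 0.20, while Pecam1, which platelets and leukocytes also express, had -0.05 ± 0.16.

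Nerve genes had the lowest median of the lists that did not rest on muscle. The list of 9 genes had a median of -1.29, and 2 of its genes were counted lower, among them S100b at a log2 difference of -1.45 ± 0.25. Pmp22 and Prx, of peripheral myelin, had log2 differences of -1.29 ± 0.18 and -1.76 ± 0.39, while Mbp, which other cells also express in a different form, had -0.003 ± 0.15. Cldn19, a claudin of Schwann cells, was among the 10 lowest differences, which included those of Kng2, Klf14, Dclk3, Igsf1, Cldn19, Klhl33, Myoc, Sfrp5 and Rtn2. Klf14, a transcription factor of fat, lay at 1.04 to 1.93 against 2.30 to 14.99 CPM, and Sfrp5, a secreted inhibitor of Wnt signalling, at 5.24 to 12.1 against 21.9 to 152 CPM. Klhl33 and Rtn2 reached 262 and 918 CPM in Lepob/+ replicate 4, the library with the highest muscle list, and their log2 differences of -2.20 and -2.16 were -1.47 and -1.37 without it. Without Lepob/+ replicate 3 that of Rtn2 was -1.41.

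Lists of housekeeping and metabolic genes had medians nearer 0, and some changed sign with the scale or the genotype. The cell cycle and skeletal muscle lists, given with them, were further from 0. The 49 cytosolic ribosomal protein genes were all above 0, with a median of 0.48 (0.68 with library totals), and 1, Rps27, was counted higher at a log2 difference of 1.00. The 32 splicing factor genes were all above 0 too, with a median of 0.28 (0.50 with library totals). Of the 16 cell cycle genes, all above 0 with a median of 1.17, Mki67 was counted higher and lay at 21.8 to 41.9 against 4.35 to 20.9 CPM. Nuclear genes of oxidative phosphorylation had a median of -0.33 (-0.09 with library totals), and mitochondrially encoded genes changed sign, from -0.13 to 0.11, as did interferon response genes, from -0.16 to 0.01. Without the 3 libraries that stood apart these medians were -0.12, 0.14 and -0.44. The de novo lipogenesis list had a median of 0.05 (0.02 without those 3 libraries and -0.80 to 0.48 with 1 library left out), but of -0.83 within WT, 1.87 within Lepob/+ and -0.76 within SOD1G93A. The skeletal muscle list had a median of -5.65, and of 1.61 without WT replicate 3, Lepob/+ replicate 4 and SOD1G93A-Lepob/+ replicate 3. Pericyte, red blood cell and mast cell and neutrophil genes had medians of -0.28, 0.06 and -0.19, with 0 genes counted, and of -0.12, -0.04 and -0.46 without those 3 libraries. These lists are too short for the 0 genes counted to be read against 6.67% higher and 0.811% lower of all genes. Among reference genes used to scale other assays, Actb had a log2 difference of 0.71 ± 0.15 and Ppia of -0.05 ± 0.11.

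The genes counted higher took 3.23 to 5.82% of all counts in the Glycam1-high libraries (median 3.76%) and 0.558 to 1.12% in the others (median 0.877%). The 620 genes that were higher by 8-fold or more took 0.827 to 1.83% against 0.0268 to 0.0602%. Both sets were chosen because every Glycam1-high library lay above every Glycam1-low library, so the choice itself set their shares apart. The adipocyte list took 3.69 to 5.72% (median 4.54%) against 2.95 to 7.51% (median 6.51%). The Glycam1-low library with the smallest adipocyte share was Lepob/+ replicate 4, in which muscle genes took 17.2% of all counts.

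**Figure D3:**
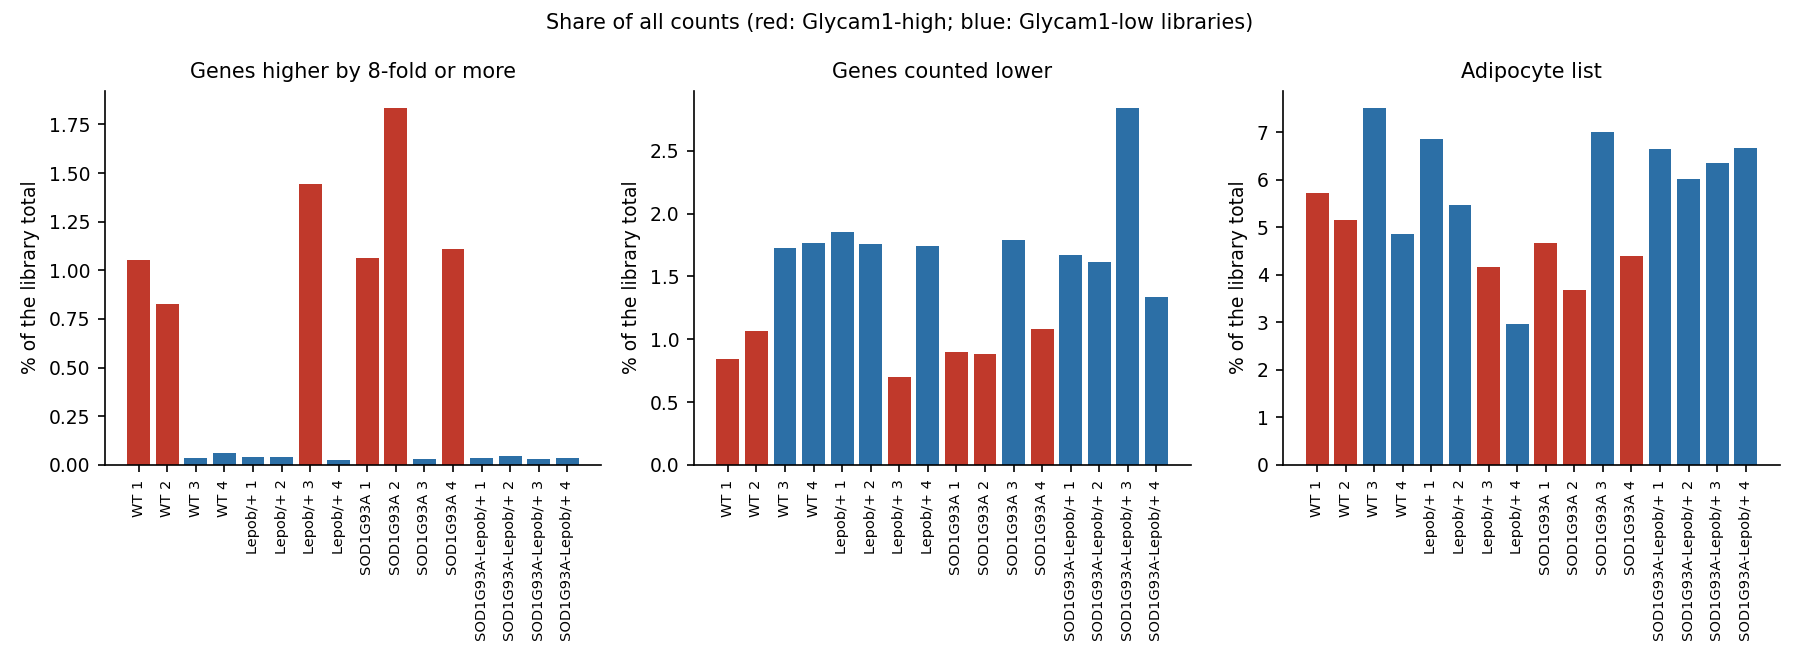
Share of all counts, in percent of the library total, taken by the genes counted higher by 8-fold or more, by the genes counted lower and by the adipocyte list, with 1 bar per library, red for Glycam1-high and blue for Glycam1-low. The bars of the first panel reach 0.827 to 1.83% in the Glycam1-high libraries and at most 0.0602% in the others, and those of the adipocyte list overlap. Genes of the panels other than the adipocyte list were chosen because the groups did not overlap.

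The differences within genotypes, each set on its own libraries, were compared for WT (2 against 2), Lepob/+ (1 against 3) and SOD1G93A (3 against 1). T cell genes had a median log2 difference of 5.14 within WT, 6.10 within Lepob/+ and 6.26 within SOD1G93A, and B cell genes of 4.89, 6.56 and 7.47. Adipocyte genes had -0.29, -0.41 and -0.86. Of the 1316 genes counted higher 1137 were higher by 2-fold or more in each of these genotypes, as were lower 68 of the 160 genes counted lower. These genes were chosen from the same libraries, so the direction within each genotype was fixed and only its size could vary. In the test of whether the difference itself differed between SOD1G93A and WT, 4 genes of 19736 (0.0203%) passed an adjusted p of 0.05 in edgeR's quasi-likelihood test, which were Rlf, Gm22579, Tbc1d24 and Zfp324. Cd79a had a log2 difference between SOD1G93A and WT of 2.36 ± 1.02 and Cd3e of 0.79 ± 0.72, both at an adjusted p of 1 in edgeR, where the Glycam1-low arm of SOD1G93A is 1 library and the same test found 10 of 67 genes simulated with a log2 change of 2.

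Each of those 4 genes was low in 1 or 2 libraries. Rlf, a zinc finger gene, had only 11 counts in SOD1G93A replicate 3, where the 15 remaining libraries held 795 to 1472 (edgeR adjusted p = 9.27e-07). Gm22579 had 2 counts and Tbc1d24 103 counts in the same library, beside 34 to 76 and 372 to 833 in the others. Zfp324 had 141 and 111 counts in WT replicates 1 and 2 and 265 to 607 in the other 14. SOD1G93A replicate 3 was the only Glycam1-low library of its genotype, so the test could not be made without it. The number of genes that passed was 2 without WT replicate 2, WT replicate 4 or SOD1G93A replicate 2, and 1 without WT replicate 3, SOD1G93A replicate 1, SOD1G93A-Lepob/+ replicate 3 or SOD1G93A-Lepob/+ replicate 4.

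The 6 Glycam1-high libraries also differed among themselves. Summed B cell to T cell list counts had a ratio of 0.916 and 0.978 in WT replicates 1 and 2, 1.07, 1.43 and 1.58 in SOD1G93A replicates 1, 2 and 4, and 1.56 in Lepob/+ replicate 3. These are ratios of counts, with no correction for gene length, and serve to compare libraries. The ratio of Cd79a to Cd3e ran from 2.27 in WT replicate 1 to 4.12 in Lepob/+ replicate 3, and that of Cd4 to Cd8a from 0.689 to 1.01. Foxp3 had 11.6 to 22.6 counts per 100 of Cd3e. The chemokine Ccl21a held 3.35 to 5.13 counts per count of Cd3e. Each of these ratios varied by less than 2-fold among the 6 libraries, and that of Glycam1 to Cd3e by more, from 4.15 to 8.80.

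Genes of antibody secretion and class varied far more. Jchain, which joins secreted antibodies of plasma cells, had 1144 counts in Lepob/+ replicate 3 and 1757 in SOD1G93A replicate 2. The 4 remaining Glycam1-high libraries had 131 to 181, within the 56 to 289 of the Glycam1-low libraries. Ighe had 11 and 12 counts in these same libraries and 0 in the other 14. Ighg1 had 930 counts in Lepob/+ replicate 3 and 6 to 116 in the other Glycam1-high libraries, beside 218 in the Glycam1-low library Lepob/+ replicate 4 and 0 to 23 in the other 9. In the germinal centre list 2 of 8 genes, Gcsam and Mef2b, were counted higher, and Bcl6, which other cells also express, had -0.53 ± 0.22. In the plasma cell list Mzb1 was counted higher and 7 of 8 genes were not, among them Jchain, Xbp1 (-0.22 ± 0.18) and Irf4 (0.30 ± 0.31).

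**Figure D4:**
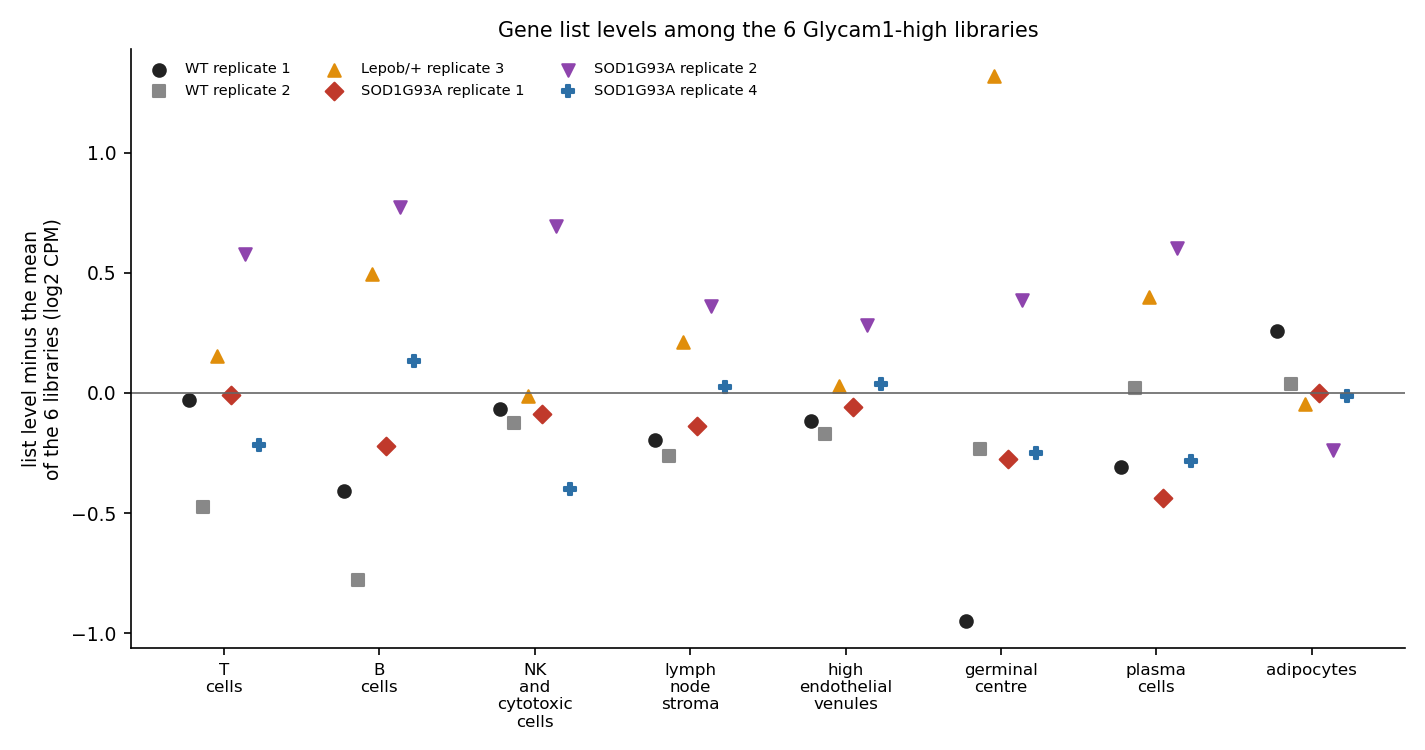
Level of 8 gene lists in each Glycam1-high library, as the mean log2 CPM of the list minus the mean of the 6 libraries, with 1 symbol per library. The lists of high endothelial venules and lymph node stroma spread least among the 7 lymphoid lists, and Lepob/+ replicate 3 is highest for the germinal centre list.

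The division fell unevenly over the genotypes, and the question was whether more so than 16 libraries allow. Glycam1-high libraries were 2 of 4 in WT, 1 of 4 in Lepob/+, 3 of 4 in SOD1G93A and 0 of 4 in SOD1G93A-Lepob/+. Over the 4 genotypes the two-sided Fisher exact test gave p = 0.333 (adjusted p = 0.444 over 4 tests). SOD1G93A-Lepob/+ against SOD1G93A gave an exact p = 0.143, and carriers of ob, with 1 of 8, against the others, with 5 of 8, an exact p = 0.119 (both adjusted p = 0.286). Carriers of the transgene had 3 of 8, as had the others (exact p = 1). Without Lepob/+ replicate 3 the exact p for ob carriers was 0.0256, and without WT replicate 3, WT replicate 4 or SOD1G93A replicate 3 it was 0.0406. Without SOD1G93A replicate 3 the exact p of SOD1G93A-Lepob/+ against SOD1G93A was 0.0286. These values were not adjusted. The libraries left out were the Glycam1-high ob carrier and the Glycam1-low libraries without ob, which go against the pattern. Removing them lowers the p by itself.

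Comparisons between genotypes carried the division with them. In SOD1G93A-Lepob/+ minus SOD1G93A, 0 against 3 Glycam1-high libraries, all 24 T cell and all 22 B cell genes had an unadjusted p under 0.05 in edgeR without the Glycam1 group as a term, at median log2 differences of -5.75 and -6.15. With the term the medians were -0.16 and -0.20, and 1 and 0 genes had such a p. All of these genes were counted higher in the Glycam1-high libraries, so the term takes up their difference whatever its source. An effect of genotype on lymphoid content and the uneven division of the libraries cannot be told apart here. Cd3e had -5.81 ± 1.91 without and -0.23 ± 0.41 with the term, and Cd79a -6.96 ± 2.35 and -0.01 ± 1.06. With the term this contrast rests on SOD1G93A replicate 3 for its Glycam1-low libraries of SOD1G93A and on the assumption that the difference is the same in every genotype.

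Over all genes, 3261 (16.5%) had an unadjusted p under 0.05 in this contrast without the term and 732 (3.71%) with it, with 323 genes in both sets, where p-values spread evenly would give 987. Of the 3261 genes 1075 were counted higher in Glycam1-high libraries and 16 lower, beside 1316 (6.67%) and 160 (0.811%) of all genes. Genes chosen by a difference between the Glycam1 groups tend to differ in this contrast too, so the overlap with those counted higher was largely built in. Without SOD1G93A-Lepob/+ replicate 3 the number with the term was 1135. Adipocyte genes had a median of 0.37 without and -0.04 with the term. In edgeR 0 genes passed an adjusted p of 0.05 in this contrast, with or without the term, while DESeq2 called 595 without and 33 with it. The log2 differences of those 33 ran from -31.1 to 21.5, and whether the largest rest on a few libraries was not tested.

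For Lepob/+ minus WT and SOD1G93A minus WT, edgeR also called 0 genes at an adjusted p under 0.05, with 862 and 505 genes at an unadjusted p under 0.05 without the term and 980 and 580 with it. DESeq2 called 10 and 5 genes with the term and 1 and 2 without. The log2 differences of those called with the term ran from -20.9 to 18.4 and from -23.6 to 22.1. Whether the largest rest on a few libraries was not tested. T cell genes had median log2 differences of -0.58 and 0.92 without the term and -0.14 and -0.04 with it, and the median standard error of a T cell gene fell from 1.501 and 1.508 to 0.38 and 0.38.

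**Figure D5:**
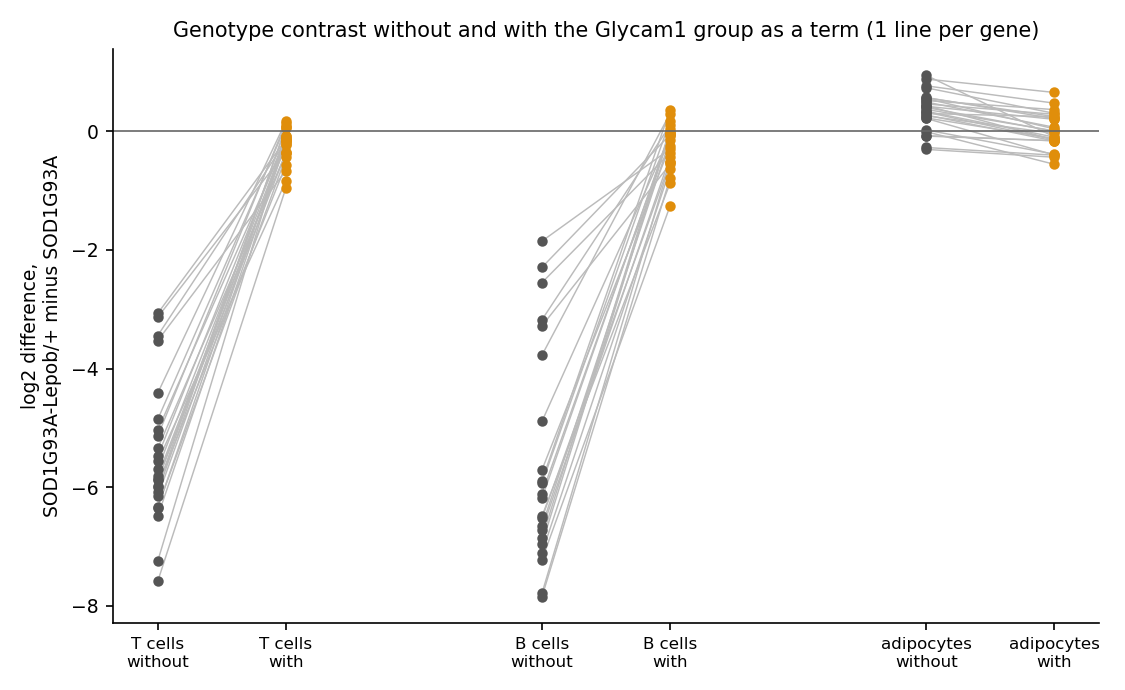
Log2 difference of SOD1G93A-Lepob/+ minus SOD1G93A for each T cell, B cell and adipocyte gene, fitted without (grey) and with (orange) the Glycam1 group as a term, with 1 line per gene. T and B cell genes lie between -7.85 and -1.85 without the term and between -1.26 and 0.36 with it.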

How the data were processed

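RNA was extracted by the authors from iWAT with Qiazol and a lipid tissue kit. Library preparation is given differently by the study's methods (TruSeq Stranded mRNA) and the labels (NEBNext Ultra), and strand setting and annotation release are not given in the sources used here. The authors trimmed reads with fastp, aligned them to mm10 with HISAT2 2.1.0 and summed unique alignments over genes with featureCounts 2.0.2 (versions from the submitters' processing notes). The deposited values are raw counts of 54752 genes in 16 libraries, of which 54723 were paired with symbols and GRCm38 positions in GENCODE M21.

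Counts were analysed with edgeR 4.0.16 in R 4.3.3. filterByExpr (min.count 10, min.total.count 15, genotypes as groups) kept 19736 genes. The fit was robust quasi-likelihood with TMM factors (0.664 to 1.11) and a prior count of 1 for log2 CPM. The high minus low difference had genotype as a term and no test, because the libraries were grouped by Glycam1. The interaction used 1 mean per genotype and group, and the genotype contrasts were fitted with and without the group, all Benjamini-Hochberg adjusted over all genes. The genotype labels say that the 4 libraries of a genotype are separate samples, and the study gives them as mice.

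The 34 gene lists, their members, the groups and the tests were chosen with earlier results of these data known. Genes named are the 4 markers, up to 4 most abundant members of each list, all members of lists of 8 or fewer, the lowest and highest member of the T and B cell lists, the 10 highest and 10 lowest differences at 1 CPM or more on average, and up to 10 genes past a test. Adipoq, Plin1, Cidec and Lep are the markers of adipocytes. Other members outside these rules, the antibody genes counted per library, and the promoters shown were chosen after their values were seen. On simulated counts of 19490 genes, the interaction test found 0 of 67 genes with a simulated log2 change of 1, 10 of 67 with 2 and 36 of 66 with 3, and made 7 false calls. In SOD1G93A-Lepob/+ minus SOD1G93A with the term, on 19483 genes, it found 7 of 67, 56 of 67 and 66 of 66 and made 4 false calls. Alternatives were DESeq2 1.42.0, DESeq2 size factors, library totals, TMM computed without the lymphoid lists, no filter or a minimum of 1 CPM in 4 libraries, a replicate block, no genotype term, other thresholds, and libraries left out. The fit without WT replicate 3, Lepob/+ replicate 4 and SOD1G93A-Lepob/+ replicate 3 together was chosen after seeing the data. Results that need a few genes are not reported here.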

Additional observations from a re-analysis of the deposited data

Results flagged for a closer look

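In 68 list levels, 34 lists in the 6 Glycam1-high and in the 10 Glycam1-low libraries, 6 had 1 library far from the others, and chance alone gives about 1 in 20. Levels are mean log2 CPM. Among Glycam1-low libraries, WT replicate 4 was highest for T cells, at 0.72, with the next library at 0.03. Lepob/+ replicate 4 was highest there for mitochondrially encoded genes, at 12.05 against 11.24 in the next, and for reference genes, at 7.62 against 7.32, and it was also the library with the most muscle transcripts. Among Glycam1-high libraries, SOD1G93A replicate 2 was highest for NK and cytotoxic cells, at 3.41 against 2.70, and lowest for mammary epithelium, at 4.47 against 5.57. WT replicate 2 was lowest for de novo lipogenesis, at 8.74 against 9.91.

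For 4 genes the high minus low difference differed between SOD1G93A and WT in edgeR's quasi-likelihood test. The log2 difference between the genotypes was 6.91 for Rlf, 4.48 for Gm22579, 3.43 for Tbc1d24 and 2.43 for Zfp324, with edgeR adjusted p of 9.27e-07, 0.0277, 0.0277 and 0.0372. The first 3 rest on low counts in SOD1G93A replicate 3, the only Glycam1-low library of its genotype, and Zfp324 on low counts in both Glycam1-high WT libraries.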

How the results depend on the processing

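Over 29 settings and 1266 recomputed values, the log2 differences of 22 genes, the 4 markers and the 10 highest and 10 lowest differences, did not change sign (616 values). These genes include the one that grouped the libraries and those with the most extreme differences, so their signs could hardly change. Thresholds of 0.2 and 5 CPM for Glycam1 gave the same 6 libraries and so repeated the main values. Other genes named were not recomputed, and values near 0, such as those of Mbp, Pecam1 and Ppia, lie within the shift of scale between TMM and library totals. With library totals 50 genes were counted lower in the Glycam1-high libraries, the median of blood endothelium was -0.41, that of ribosomal protein genes 0.68 and that of splicing factors 0.50, and 1 gene passed the interaction test. Without WT replicate 3, Lepob/+ replicate 4 and SOD1G93A-Lepob/+ replicate 3, 326 genes were counted lower, 13 passed the interaction test, 1 passed in Lepob/+ minus WT and 6 in SOD1G93A-Lepob/+ minus SOD1G93A, where 1473 had an unadjusted p under 0.05. Without Lepob/+ replicate 4 and SOD1G93A-Lepob/+ replicate 3 these last numbers were 5 and 1516, and 2 genes passed the interaction test. DESeq2 called 10, 5 and 33 genes in the genotype contrasts with the Glycam1 group, and 31 in the interaction. The cause of these differences was not tested. The numbers of replicates were treated as labels. Residuals of 24 pairs that share a number correlated at over 0.1 in 7 pairs and at below -0.1 in 4, and 6 of 16 libraries correlated best with one of their own number. With the replicate block 1 gene passed the interaction test, 1303 genes were counted higher, and no other main result moved past its limit. Leaving out 1 library at a time gave 1319 to 1450 genes counted higher and 117 to 257 lower, medians of 5.52 to 5.95 for T cells, 5.76 to 6.75 for B cells, -1.15 to -0.37 for adipose macrophages, -0.66 to -0.38 for adipocytes and -0.80 to 0.48 for de novo lipogenesis, 1 to 5 genes in the interaction, 0 to 1 in SOD1G93A minus WT, 0 to 2 in SOD1G93A-Lepob/+ minus SOD1G93A and 565 to 1135 there at an unadjusted p under 0.05. The exact Fisher p then ran from 0.0737 to 0.397 over the 4 genotypes, from 0.0286 to 0.143 for SOD1G93A-Lepob/+ against SOD1G93A and from 0.0256 to 0.119 for ob carriers against the others. Without SOD1G93A replicate 3 the interaction has no Glycam1-low SOD1G93A library and was not run. Lymphoid genes near 0 counts in the Glycam1-low libraries limit the precision of their folds.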

Other observations

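Jchain and Ighe were highest in the same pair of Glycam1-high libraries, Lepob/+ replicate 3 and SOD1G93A replicate 2, which came from different genotypes. Of counts per 100 of Cd79a, Jchain had 9.33 and 11.6 in these libraries and 1.56 to 2.96 in the other 4. These values were picked out after they were seen and were not tested.

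Ighm was lower in the Glycam1-low libraries by less than Ighd was, and its levels overlapped between the groups. Ighm lay at 148 to 507 CPM there, beside 3.15 to 12.4 CPM of Ighd, and 0.566 to 3.83 CPM of Cd79a. Whether these Ighm counts come from B cells was not tested.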
